A study of Mus musculus with 2 samples.

Results

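The dermal papilla is the knot of specialised mesenchymal cells at the base of the hair follicle, and 9 genes commonly used to mark it or the follicle mesenchyme were followed here. They are Corin, Alpl, Vcan, Sox2, Crabp1, Alx4, Prom1, Ndp and Pdgfra, taken by name from 22180 genes that had at least 1 transcript cluster (the probe set of a transcript) with a single symbol in the platform annotation. All 9 were measured, by 10 transcript clusters in all. Expression was read on 2 Affymetrix Mouse Gene 2.0 ST arrays of total RNA extracted from dorsal skin, taken from 7-week-old males of the albino strain BALB/cAJcl. The FGF18 array came from skin that had been depilated to start the growth phase of the hair cycle, followed 6 days later by an intraperitoneal dose of 100 µg of the growth factor FGF18, dissolved in saline that contained heparin (5 µg/µl). Those mice then received 6 Gy of γ-rays to the whole body 24 h after the injection, and skin was taken 4 h after irradiation. The other array is labelled as a saline control, and the labels do not say whether its mice were depilated, irradiated or given heparin, or how many mice gave each RNA sample. Effects of FGF18, depilation, heparin and irradiation therefore cannot be told apart from these labels.

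The papilla sends growth factors and other signals to the epithelial cells that wrap around it, and these cells build the hair shaft and its sheaths. Its cells are set aside from dermal fibroblasts during development and keep a gene programme of their own, with alkaline phosphatase activity as the classical stain. In the growing phase the papilla enlarges and its matrix becomes rich in the proteoglycan versican, while in the resting phase it is small and compact. FGF18 is made by the resting follicle and holds it in that phase, and the comparison sets the FGF18 array against the saline array, here in genes of the papilla.

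No gene of this signature, with its transcript clusters averaged, differed by as much as 1.5-fold between the FGF18 and saline arrays. Of the 9 genes, 5 were higher on the FGF18 array and 4 lower, and 0 passed 1.5-fold in either direction. Over all genes, 49.5% were higher on the FGF18 array. Over all 22180 genes, 6.76% passed that fold, 2.61% higher and 4.15% lower, so a count of 0 among 9 genes is near the background. The median difference over the 9 genes was 0.12, against 0.00 over all genes. Its sign rested on Alpl: with the brightest transcript cluster in place of the average, the median was -0.06, with 4 genes higher and 5 lower. A difference here is the log2(intensity + 1) of the FGF18 array minus that of the saline array, and folds are on this scale, which understates the change of dim genes. With 1 array per group there is no spread between animals and no test, so each value compares these arrays only. In whole skin, fewer cells of a type and less RNA per cell cannot be told apart.

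Vcan and Corin had the highest differences of the signature with clusters averaged, and Alpl was read by clusters that went opposite ways. The promoter windows of these genes are therefore shown. Each runs 5′ to 3′ on the gene's strand from 250 bases before to 50 bases after an annotated start (RefSeq, build GRCm38.p6). Alpl has 2 annotated starts there, and the windows do not say which start each Alpl cluster reads. Capitals mark a TATA box (TATAAA), a Sox core (ACAAAG), a TCF/LEF core (TCAAAG) or a GC box (GGGCGG), each searched on both strands.
Vcan, chr13:89742463-89742762, minus strand: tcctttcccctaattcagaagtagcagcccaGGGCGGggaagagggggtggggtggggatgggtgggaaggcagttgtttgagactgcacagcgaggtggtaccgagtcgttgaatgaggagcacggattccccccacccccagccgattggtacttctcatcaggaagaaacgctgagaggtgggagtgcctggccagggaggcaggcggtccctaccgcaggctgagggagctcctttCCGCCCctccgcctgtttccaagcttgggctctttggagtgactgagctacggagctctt
Corin, chr5:72504491-72504790, minus strand: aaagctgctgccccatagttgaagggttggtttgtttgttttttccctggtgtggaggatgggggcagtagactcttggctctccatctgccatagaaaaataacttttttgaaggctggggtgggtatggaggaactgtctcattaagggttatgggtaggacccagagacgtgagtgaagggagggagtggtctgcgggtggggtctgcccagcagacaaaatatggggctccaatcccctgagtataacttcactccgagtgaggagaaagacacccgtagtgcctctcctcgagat
Alpl, upstream start, chr4:137796335-137796634, minus strand: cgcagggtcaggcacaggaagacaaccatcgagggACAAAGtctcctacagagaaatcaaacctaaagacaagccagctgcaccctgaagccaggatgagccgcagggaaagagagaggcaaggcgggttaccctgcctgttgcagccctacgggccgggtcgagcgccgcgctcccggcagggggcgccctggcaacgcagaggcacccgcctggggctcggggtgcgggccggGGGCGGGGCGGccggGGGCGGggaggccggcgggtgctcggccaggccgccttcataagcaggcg
Alpl, downstream start, chr4:137766426-137766725, minus strand: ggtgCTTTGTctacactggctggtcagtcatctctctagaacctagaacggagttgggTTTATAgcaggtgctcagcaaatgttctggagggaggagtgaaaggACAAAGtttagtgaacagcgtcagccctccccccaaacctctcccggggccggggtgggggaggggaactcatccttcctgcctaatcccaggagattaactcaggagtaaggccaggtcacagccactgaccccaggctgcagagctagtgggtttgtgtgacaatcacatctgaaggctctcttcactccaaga

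The base composition and motif content of these windows differed. The upstream Alpl window was 70.0% G or C and held 26 CG pairs, 3 GC boxes around its start site and 1 Sox core. The downstream Alpl window was 54.3% G or C, with 4 CG pairs, 2 Sox cores, 1 TATA box and 0 GC boxes. The Vcan window held 2 GC boxes and was 61.0% G or C, and the Corin window, at 51.7%, held none of the 4 motifs.

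Over the signature, 8 genes had 10 windows in the RefSeq table, and Alx4 had no entry. Of the 10 windows, 5 held a GC box, against 35.7% of all 32851 windows in the table. A Sox core was in 4 of 10, against 18.7% of all, a TATA box in 2 of 10, against 13.6%, and a TCF/LEF core in 1 of 10, the Prom1 window at the downstream start, against 5257 of the 32851. Both Alpl windows are among the 4 with a Sox core. The TATA matches both lie on the opposite strand, at -192 from the start in Alpl and -126 in Ndp. The Sox and TCF/LEF cores differ in their first letter, so the same site cannot count for both. Crabp1, whose intensity was nearly the same on both arrays, had 5 GC boxes, more than Vcan. Such matches describe letters and not binding sites.

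With clusters of a gene averaged, the matrix gene had the highest difference of the signature. Vcan, which encodes versican, a large chondroitin sulfate proteoglycan that binds hyaluronan, read 168 on the FGF18 array and 125 on the saline array. That is 1.34-fold higher, a difference of 0.42, and 7.26% of all genes had a difference at least as high. Of 10 genes often used as references, 5 were higher and 5 lower on the FGF18 array, with a median difference of -0.001. They ran from B2m at -0.49 to Tbp at 0.69, and both of these extremes were larger in size than the difference of Vcan.

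Genes of versican's surroundings showed differences of similar or smaller size. In the list of hyaluronan synthases, versican relatives, binding partners and cleaving proteases, 12 of 17 measured genes were higher on the FGF18 array and 5 lower. The median difference was 0.24 and 0 passed 1.5-fold. Over all genes, 49.5% were higher and 6.76% passed 1.5-fold, so a count of 0 among 17 is near that share. Of the 17 genes, 9 lay below the median intensity on at least 1 array. Among the other 8, 6 were higher, against 58.4% of all 11821 genes at or above the median on both arrays. Cd44, the main cell surface receptor for hyaluronan, read 308 on the FGF18 array and 240 on the saline array, a difference of 0.36. Tnc, which encodes the matrix glycoprotein tenascin-C, had the highest difference of the list, at 0.49. The versican-cleaving protease gene Adamts9 stood at 0.29 and Adamts1 at -0.11, and Has2, a hyaluronan synthase gene, at 0.26. Acan, the gene of the related proteoglycan aggrecan, lay below the median on both arrays, at 11.6 on the FGF18 array and 8.45 on the saline array.

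Of the signalling genes in the signature, Ndp had a larger difference than Pdgfra, the gene of a receptor for another ligand. Ndp, which encodes norrin, a secreted ligand that activates Wnt/β-catenin signalling through the receptor Frizzled-4, read 19.7 on the FGF18 array and 15.9 on the saline array, a difference of 0.29. Both values were close to the medians of their arrays, 13.8 on the FGF18 array and 14.0 on the saline array. Without detection calls, a gene whose intensity is under the median of an array cannot be shown to lie above background there, so only its intensities are given. The norrin receptor Fzd4 had a difference of 0.17, and its co-receptor genes Lrp5 and Lrp6 had 0.02 and 0.18. Tspan12, a tetraspanin that boosts norrin signalling, read 12.1 on the FGF18 array, below that array's median, and 17.5 on the saline array. Of these and Lgr4, 4 of 5 genes were higher, with 0 past 1.5-fold, against 49.5% and 6.76% of all genes.

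Pdgfra, the receptor for PDGF-A that is made throughout the dermal mesenchyme and not by the papilla alone, was nearly level. It read 33.5 on the FGF18 array and 30.7 on the saline array, a difference of 0.12 that 66.1% of all genes matched or exceeded in size. The ligand gene Pdgfa, which follicle epithelium expresses, had a difference of 0.27, and Pdgfb, a ligand made by endothelial cells, one of -0.34. Pdgfc was at -0.16. Pdgfrb, the receptor of pericytes and fibroblasts, read 14.0 on the FGF18 array and 8.51 on the saline array, the second of these below the median, so no fold is given.

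**Figure D1:**
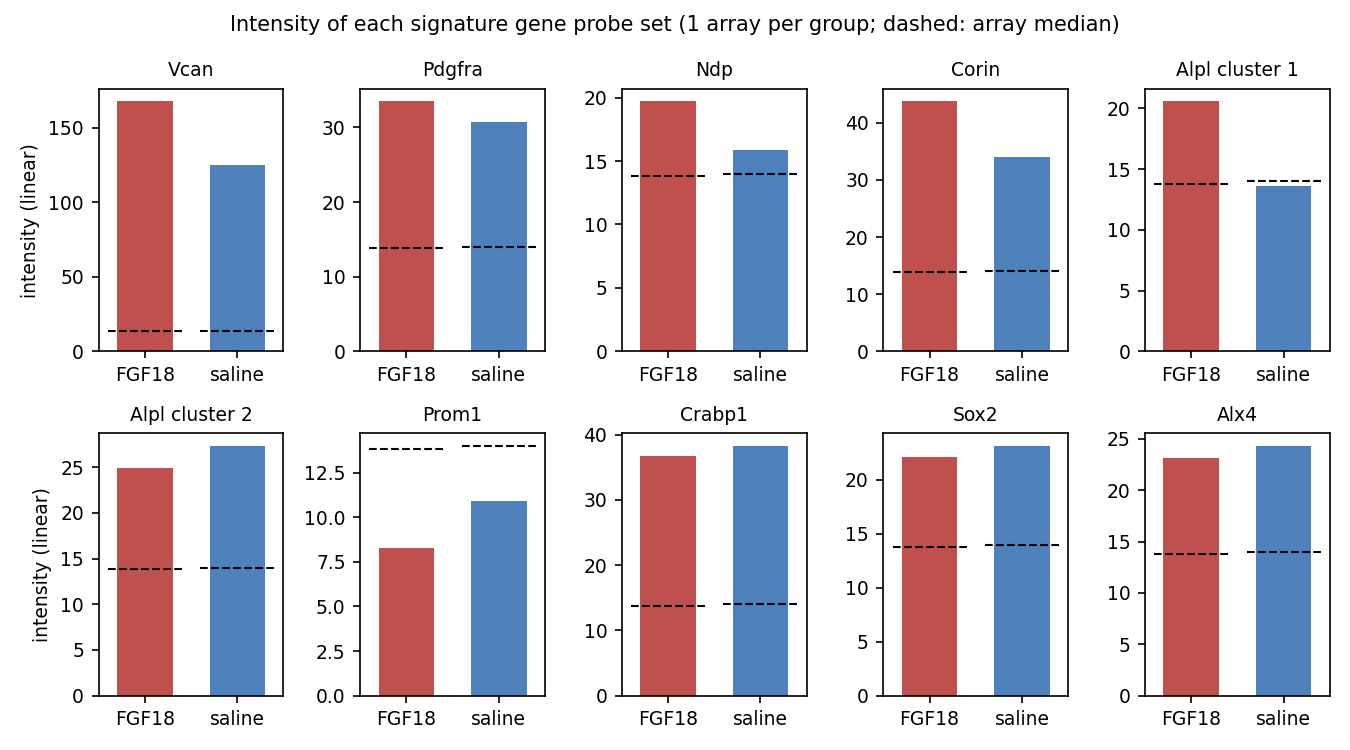
Intensity (linear scale) of each transcript cluster of the 9 signature genes on the FGF18 array (red) and the saline array (blue), 1 array per group with no error bars. Dashed lines are the array medians of 13.8 and 14.0. Both Prom1 bars and the saline bar of the first Alpl cluster are below them, and the Alpl clusters go opposite ways.

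The membrane enzymes of the signature were Corin and Alpl. Corin, a transmembrane serine protease that in mouse papilla restrains the pigment-switching signal agouti, read 43.7 on the FGF18 array and 34.0 on the saline array. It was 1.28-fold higher, a difference of 0.35, and 10.8% of all genes had a difference at least as high. The agouti gene itself, listed under its symbol a, read 23.2 on the FGF18 array and 24.7 on the saline array, and its accessory receptor gene Atrn had a difference of 0.32. The agouti target receptor Mc1r, of melanocytes, was at 0.28. Corin is also known in the heart for cutting the precursor of the natriuretic peptide from Nppa, which lay below both array medians here, at 10.4 on the FGF18 array and 12.2 on the saline array. Of 11 measured genes of this natriuretic peptide and agouti list, 5 were higher and 6 lower, and 0 passed 1.5-fold. Over all genes, 6.76% did.

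Alpl encodes tissue-nonspecific alkaline phosphatase, the enzyme behind the classical papilla stain, and its reading depended on the transcript cluster. The first cluster read 20.6 on the FGF18 array and 13.6 on the saline array, the saline value lying just below that array's median, so no fold is given. The second cluster read 24.9 on the FGF18 array and 27.3 on the saline array, a difference of -0.13. Averaged on the log2 scale, Alpl stood at 22.6 on the FGF18 array and 19.3 on the saline array, a difference of 0.22, but with the brighter cluster alone it was -0.13. The direction for Alpl thus differed with the cluster used.

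The gap between both Alpl clusters was 0.69 on the log2 scale. The first cluster stood at 0.56, with its saline value below the array median, and the second at -0.13. That first value is larger than the 0.42 of Vcan. Among 968 genes read by exactly 2 clusters the median gap was 0.25, and 66 of them, or 6.82%, had a gap at least as wide as that of Alpl. Clusters of the same gene had opposite signs in 40.5% of the 968 genes. Over all 1082 genes with several clusters, differences of clusters scattered around the mean of their gene with a standard deviation of 0.28. This spread lies between probe sets of a gene and holds no variation between animals. It was not split into probe error and differences between transcripts.

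The transcription factor genes and the retinoid binding gene were nearly equal on both arrays. Sox2, a transcription factor that in mouse skin marks the papillae of some hair types and also Merkel and Schwann cells, read 22.1 on the FGF18 array and 23.2 on the saline array, a difference of -0.07. Alx4, a homeobox gene of mesenchyme that patterns limbs and skull, read 23.2 on the FGF18 array and 24.3 on the saline array, also a difference of -0.07. Crabp1, a carrier that binds retinoic acid in the cytoplasm, read 36.7 on the FGF18 array and 38.3 on the saline array, a difference of -0.06. At least 81.1% of all genes had a difference at least as large in size as that of each of these 3 genes. The readings of Sox2 and Alx4 lay not far above the array medians of 13.8 and 14.0. Without detection calls, near-equal values of Sox2 and Alx4 do not show that these genes were expressed.

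Their relatives and partners did not all share this. Of 20 measured Sox, Alx and prominin family genes and mesenchymal Prrx genes, 10 were higher and 10 lower, with a median difference of -0.02. Of the 20, 1 passed 1.5-fold, against 6.76% of all genes. The gene past that fold was Sox7, an endothelial Sox factor. It read 15.0 on the FGF18 array and 29.9 on the saline array, a difference of -0.95. Sox18, of endothelium and also of papillae, was below the median on both arrays, at 11.7 on the FGF18 array and 8.38 on the saline array. The follicle stem cell factor Sox9 had a difference of 0.08.

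In the retinoid list 8 of 14 measured genes were higher and 5 lower, with 3 past 1.5-fold on the lower side, against 4.15% of all genes. Of the 10 genes of this list at or above the median on both arrays, 2 were that much lower, and 0 of the 10 that much higher. Crabp2, the second cellular retinoic acid binding protein gene, read 37.0 on the FGF18 array and 68.5 on the saline array, a difference of -0.87, set beside -0.06 for Crabp1. Dhrs9, a retinol dehydrogenase gene of differentiating epithelium, had a difference of -1.13. Aldh1a2, a retinoic acid synthesis gene, read 7.18 on the FGF18 array and 11.8 on the saline array, both below the array medians. At the other end, the retinol uptake receptor gene Stra6 had a difference of 0.53 and Aldh1a3, another retinoic acid synthesis gene, one of 0.51. Crabp2 and Dhrs9 are also made by keratinocytes, and 12 of 12 markers of differentiated keratinocytes were lower by 1.5-fold or more. The part of that shift in the values of Crabp2 and Dhrs9 was not tested.

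Prom1, which encodes the membrane glycoprotein prominin-1 (CD133) of papilla cells in growing follicles, was the only signature gene below the median on both arrays. It read 8.26 on the FGF18 array and 10.9 on the saline array, so no fold is given and this platform does not show it above background. Its relative Prom2, of epithelial cells, read 56.5 on the FGF18 array and 61.1 on the saline array, a difference of -0.11. Of the 8 signature genes at or above the median on both arrays, 5 were higher and 3 lower on the FGF18 array. Over 11821 genes that met the same criterion, 58.4% were higher, the median difference was 0.07 and 7.29% passed 1.5-fold in either direction.

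**Figure D2:**
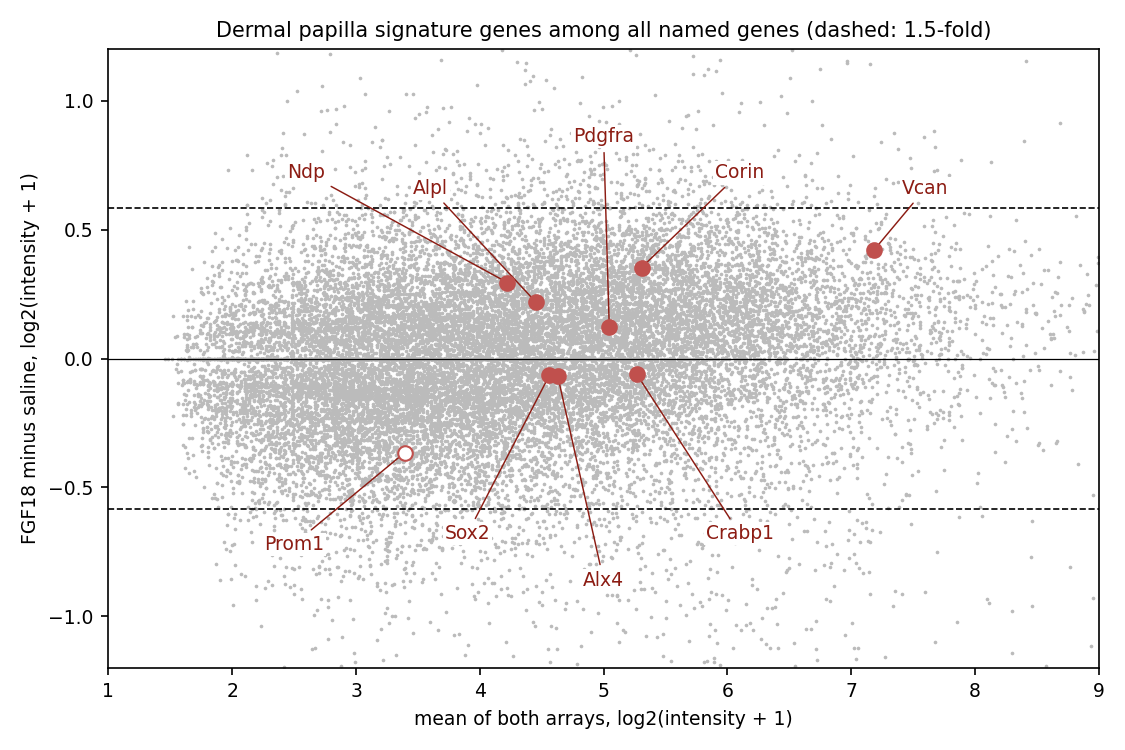
Difference (FGF18 minus saline, log2(intensity + 1)) against the mean of both arrays for 21908 of 22180 genes (grey points; 272 genes fall outside the axes), with the 9 signature genes in red and Prom1, below the median on both arrays, as an open circle. All 9 lie between the dashed lines at 1.5-fold, with Vcan highest at 0.42.

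A wider list of 40 papilla and dermal condensate genes, of which 38 were measured, contained larger differences. In it 26 genes were higher on the FGF18 array and 12 lower, with a median of 0.22 against 0.00 over all genes. Of its 28 genes at or above the median on both arrays, 20 were higher, with a median of 0.21. Over all 11821 genes that met this criterion, 58.4% were higher and the median was 0.07. Past 1.5-fold in the whole list there were 5 higher genes and 1 lower gene, against 2.61% and 4.15% of all genes. Among the 28 genes at or above both medians, 4 were that much higher and 1 that much lower. Over all genes that met this criterion, 7.29% passed 1.5-fold in either direction. This list and the signature were both chosen with results of these data known, and several of its genes are also made outside the papilla, so its counts describe it and are no independent evidence. Without Msx2 and Trps1, which stand in the hair matrix or inner root sheath lists too, the median over the other 36 genes was 0.20. Lef1, also a gene of the hair matrix, stayed among them, so this median does not separate papilla from epithelium.

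Of the genes in that list at or above the median on both arrays, Lef1, Wif1, Msx2 and Wnt5a passed 1.5-fold on the higher side. Prdm1 did so on the lower side. Wif1, a secreted Wnt inhibitor of the papilla, read 232 on the FGF18 array and 135 on the saline array, a difference of 0.78. Lef1, the DNA-binding partner of β-catenin in both papilla and hair matrix, read 169 on the FGF18 array and 97.3 on the saline array, a difference of 0.79. The Wnt ligand gene Wnt5a stood at 0.65 and Msx2, a BMP-responsive homeobox gene of the hair matrix, at 0.68. Fgf10, an epithelial growth factor gene of the papilla, is the other gene in the higher count of the whole list. It read 16.5 on the FGF18 array and 9.0 on the saline array, the second of these below the median, so no fold is given. Prdm1, which marks papillary dermis and papilla precursors but also sebaceous and epidermal cells, was at -0.65, with 57.2 on the FGF18 array and 90.4 on the saline array.

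Other genes of that list differed by less than 1.5-fold. The BMP genes Bmp4, Bmp6 and Bmp7 stood at 0.20, 0.27 and 0.49. The growth factor gene Fgf7 stood at 0.50, and Kitl, the melanocyte growth factor gene, at 0.35. The Wnt-enhancing R-spondin genes went different ways, with Rspo3 at 0.20, Rspo2 at -0.10 and Rspo1 at -0.33. Nog, the BMP inhibitor gene, read 17.6 on the FGF18 array and 13.5 on the saline array, the second of these below the median. Hey1, a Notch target gene used as a papilla marker, stood at -0.44, and Inhba at -0.41.

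**Figure D3:**
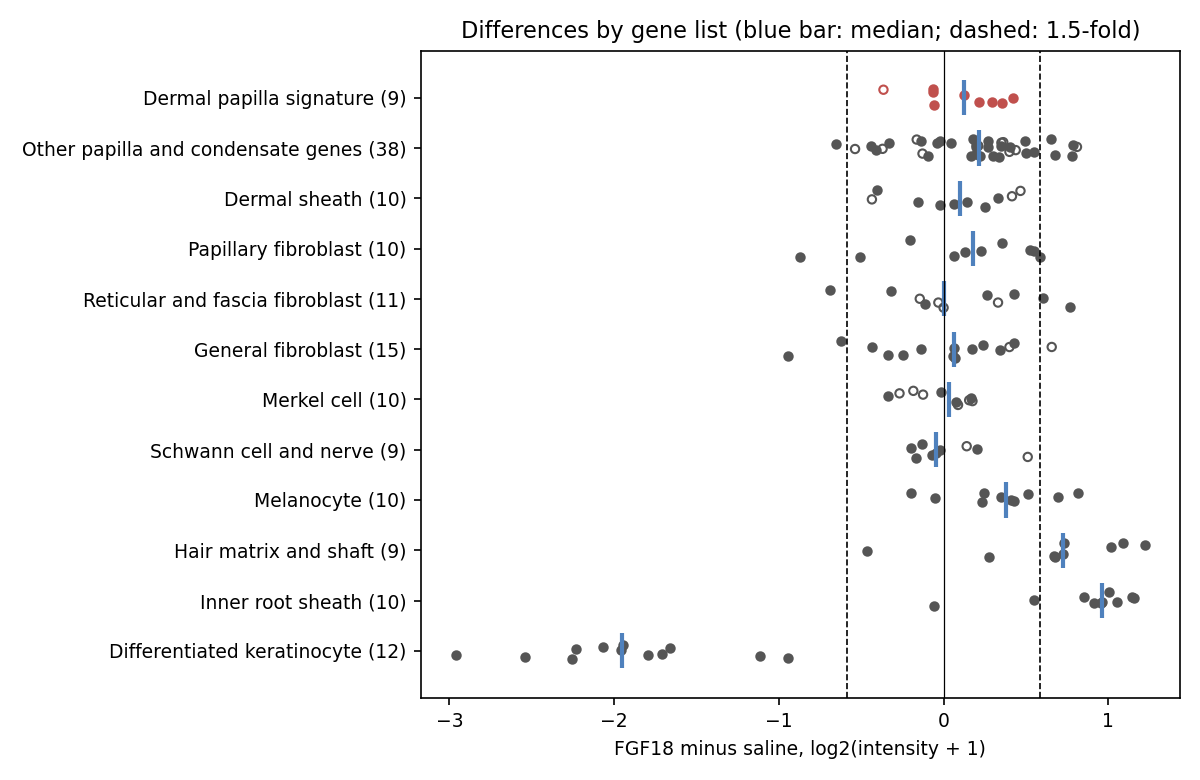
Differences (FGF18 minus saline, log2(intensity + 1)) of the genes in each list, a dot per gene, filled where the gene was at or above the median on both arrays and open where it was not, with the list's median as a blue bar and the number of measured genes in brackets. The 8 filled signature genes (red) span -0.07 to 0.42, while inner root sheath genes centre on 0.96 and differentiated keratinocyte genes on -1.95.

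Whole skin holds other cells that express the signature genes, and their markers were read on the same arrays. General fibroblast markers, which bear on Pdgfra and Vcan, had 9 of 15 genes higher and 6 lower, with a median of 0.07, and their summed intensity was 1298 on the FGF18 array and 1356 on the saline array. Within them the collagen genes Col1a1 and Col3a1 were at -0.33 and -0.43 and the proteoglycan gene Lum at -0.95, while the proteoglycan gene Dcn was at 0.42, the same difference as that of Vcan. Papillary fibroblast markers had a median of 0.18 over 10 genes, from Crabp2 at -0.87 to the Wnt inhibitor gene Apcdd1 at 0.59. Reticular and fascia fibroblast markers had a median of 0.00 over 11 genes, from Dpt, a matrix protein gene, at -0.69 to Gpx3, a secreted glutathione peroxidase gene, at 0.77. Dermal sheath markers, of the contractile cup around the follicle, had a median of 0.10 over 10 genes, with Acta2, smooth muscle actin, at 0.33. Of these 10 genes, 0 passed 1.5-fold, against 6.76% of all genes.

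Sox2 is shared with Merkel and Schwann cells. Merkel cell markers had 5 of 10 genes higher and 5 lower, with a median of 0.03, and their summed intensity was 164 on the FGF18 array and 165 on the saline array. Of these 10 genes, 6 lay below the median on at least 1 array, among them Atoh1, the factor that specifies Merkel cells, at 10.3 on the FGF18 array and 12.7 on the saline array. Schwann cell and nerve markers had 3 of 9 genes higher and 6 lower, a median of -0.05 and summed intensities of 267 on the FGF18 array and 281 on the saline array. In both lists 0 genes passed 1.5-fold, against 6.76% of all genes. The source of the Sox2 signal was not tested.

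The epithelial lists had medians farther from 0 than the mesenchymal lists above, at 0.96 for the inner root sheath, 0.73 for hair matrix and shaft and -1.95 for differentiated keratinocytes. Inner root sheath markers, from the sleeve that moulds the hair, had 9 of 10 genes higher, 8 of them by at least 1.5-fold, and summed to 6410 on the FGF18 array and 3274 on the saline array. Hair matrix and shaft markers had 8 of 9 genes higher, 7 of them by at least 1.5-fold, and summed to 996 on the FGF18 array and 621 on the saline array. Differentiated keratinocyte markers summed to 4766 on the FGF18 array and 18869 on the saline array, with 12 of 12 lower. Melanocyte markers had 8 of 10 genes higher, with a median of 0.38. Over all genes, 49.5% were higher, 2.61% were higher by at least 1.5-fold and 4.15% were lower by at least 1.5-fold. The summed intensity of the 9 signature genes was 377 on the FGF18 array and 321 on the saline array. Vcan, which fibroblasts outside the papilla also express, made up 168 and 125 of these sums. The part of these shifts in the signature's values was not tested.

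The differences were also computed in 6 other ways, most of which could change their size but not their sign. For the 8 genes with 1 transcript cluster, a different pseudocount, the brightest cluster and centring on a median of 0.00 leave the sign as it is by construction. Subtracting a fitted trend of difference on intensity could turn it, and did so for 0 of the 9 genes. Vcan ranged from 0.31, with that trend subtracted, to 0.43, and Corin from 0.26, with a pseudocount of 16, to 0.36. Ndp ranged from 0.16, with that pseudocount, to 0.31, and Pdgfra from 0.05 to 0.13. Sox2, Crabp1 and Alx4 lay between -0.14 and -0.04 throughout. None of these settings took a signature gene past 1.5-fold. They read Alpl as the average of its clusters or by its brighter cluster, and its dimmer cluster alone was not among them.

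**Figure D4:**
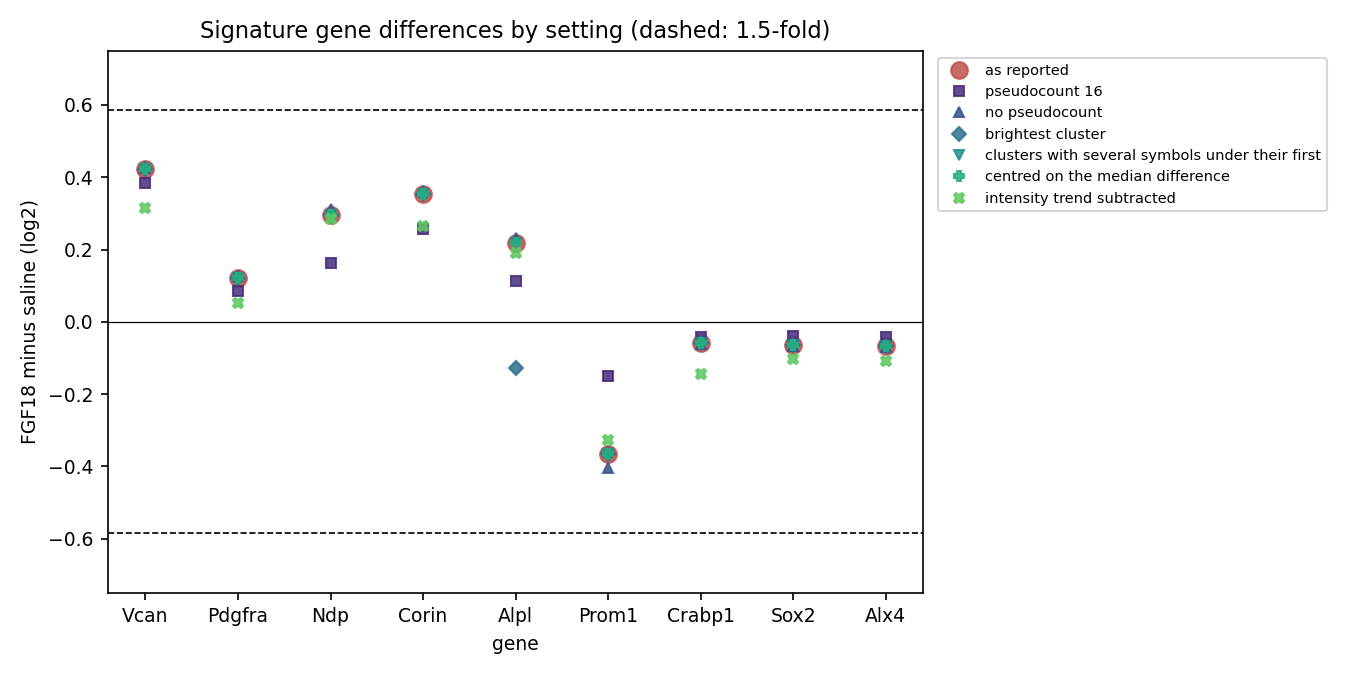
Difference (FGF18 minus saline, log2) of each signature gene as reported (large red circles) and under 6 alternatives (other symbols), with dashed lines at 1.5-fold. All points lie between the lines, and Alpl is the only gene with points on both sides of 0.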

How the data were processed

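Trizol-extracted total RNA was biotin-labelled (GeneChip WT PLUS), per the labels' protocols. The deposited intensity values came from Affymetrix Expression Console and RMA, per the submitters' processing notes, with versions not given in the sources used here. They are linear, as judged from their range of 1.44 to 11532 on the FGF18 array and 1.39 to 11488 on the saline array. There is no sequencing depth on arrays, and their number, 1 in each group, limits the precision.

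Of 41345 transcript clusters, 23521 had 1 gene symbol in the platform annotation, 1814 several and 16010 none. Only the first kind was used. Values became log2(intensity + 1), and clusters of a symbol were averaged, giving 22180 genes. All 9 signature genes matched the mouse gene table (GRCm38.p6) by Entrez identifier under the same symbol. The difference is FGF18 minus saline, and 1.5-fold is the threshold counted. No test was possible. The signature and the gene lists were chosen with earlier results of these data known. Genes were named from the signature, list members past 1.5-fold, the extremes of lists and known partners, and not each such gene is given. Other papilla genes, collagens, reference genes and lineage factors were named after their values were seen. Calculations used Python 3.11.15 with pandas 2.3.3 and statsmodels 0.14.6. The gene differences and the counts past 1.5-fold were checked on simulated data without noise, which a correct calculation recovers by construction.

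Alternatives were a pseudocount of 16 or 0, the brightest cluster, clusters with several symbols under their first, centring on the median, a lowess trend (span 0.3) subtracted, a 2-fold threshold, the mean in place of the median, and genes at or above the median on both arrays.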

Additional observations from a re-analysis of the deposited data

How the results depend on the processing

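Alpl was at -0.13 with its brightest cluster, against 0.22 when its clusters were averaged, which moved it by more than the spread of 0.28 between clusters of a gene. For the 8 genes with 1 cluster only the trend subtraction could have turned a sign, and it did not; clusters with several symbols added none to these genes. The count of signature genes past 1.5-fold was 0 in both directions under each alternative. With a pseudocount of 16, 1.93% of all genes passed 1.5-fold, and with none 8.53% did. The median difference over the signature was 0.12. It was -0.06 with the brightest clusters, by construction through Alpl, 0.05 with the intensity trend subtracted and 0.17 over the 8 genes at or above the median on both arrays. Centring left all values as they were, since the median difference over all genes was 0.00. No paired analysis was possible because each group has 1 array. With 1 array per group, leaving out a sample was not possible, and low signal limits Prom1 and the first Alpl cluster.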

Other observations

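Phosphate handling genes around Alpl went different ways. Ank, a pyrophosphate transport gene whose product opposes mineralisation, read 62.9 on the FGF18 array and 98.3 on the saline array, a difference of -0.64. The sodium-phosphate cotransporter genes Slc20a1 and Slc20a2 had differences of 0.38 and 0.41, and Mgp, the matrix Gla protein gene, one of 0.48. The other alkaline phosphatase genes Alpi, Akp3 and Alppl2 lay below the array medians on both arrays, with intensities from 6.68 to 10.6 on the FGF18 array and from 4.61 to 9.28 on the saline array.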
